A study of Arabidopsis thaliana with 6 samples.

Results

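The RALF-like (RALFL) genes encode rapid alkalinization factors, small secreted peptides that act as signals between plant cells. All probe sets whose annotation names a single gene with a symbol starting with RALF were taken, which gave 11 genes with 1 probe set each among 22746 probe sets tested. These were RALFL18, RALFL22, RALFL24, RALFL25, RALFL26, RALFL27, RALFL28, RALFL31, RALFL32, RALFL33 and RALFL34. The TAIR10.1 reference holds 34 genes with such a symbol, and the other 23 were not analysed here. The 11 genes were measured in 10-day-old Arabidopsis seedlings of the Col-0 ecotype, in 3 arrays of 35S:P53 transgenic seedlings (p53) and 3 arrays of wild type seedlings (WT), as replicates 1 to 3 of each genotype. The transgene is human p53 under the cauliflower mosaic virus 35S promoter, which is active in most plant tissues. The sources used here do not say which transgenic line was hybridized, whether 1 line or several were used, or how many seedlings entered an array. Per the labels the replicates came from independent biological experiments.

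A RALF peptide is cut from a longer precursor, for some members by the site-1 protease S1P, and is released into the cell wall space. There it raises the pH and restrains cell expansion, which is best known from roots. RALF peptides bind receptor kinases of the FERONIA (FER) family together with LORELEI-type co-receptors on the plasma membrane, and they also bind leucine-rich repeat extensins in the cell wall. In Arabidopsis the pathway takes part in root and root hair growth, in pollen tube growth and in the tuning of immune receptors such as EFR.

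The RNA was read on the GeneChip Arabidopsis ATH1 array, where several short oligonucleotides that match the same transcript form a probe set. The authors summarized the probe sets with PLIER, and the deposited values are logs centred so that every probe set has a median of 0 over the 6 arrays. Such a centred value shows how an array stands against the other arrays and gives no expression level, so the members could not be ranked by abundance and it could not be seen whether a gene was expressed at all. For the same reason the seedling label could not be checked against tissue markers. The base of the logs is stated nowhere in the labels or methods. It was read as 2, and every fold change depends on that. No probe set is annotated to the human transgene, so the genotype labels were not checked through it. The medians of the arrays lay between -0.02 and 0.01 on the centred scale. Their spread was unequal, with quartiles at -0.15 and 0.16 in p53 replicate 3 and at -0.08 and 0.10 in WT replicate 1. The number of arrays limits the precision.

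Of the 11 RALF-like genes, 1 was higher and 2 were lower in p53-transgenic seedlings, and 8 did not pass the test. RALFL24 rose 2.63-fold, whereas RALFL33 and RALFL34 fell to 0.512 and 0.551 of the WT level. Genes were compared with limma across all probe sets, and a gene passed at an adjusted p under 0.05 after Benjamini-Hochberg adjustment over all 22746. The single increase is 9.09% and the 2 decreases are 18.2% of the RALF-like genes, against 6.55% of all probe sets that passed as higher and 8.84% that passed as lower. In either direction 3 of the 11 genes passed, against 15.4% of all probe sets. Of the 13513 probe sets that name 1 gene, as those of the members do, 749 passed as higher and 1141 as lower. The median log2 fold change (p53 minus WT) was -0.05 over the 11 genes and -0.01 over all probe sets. In whole seedlings, fewer cells of a type that expresses a gene and less of its RNA per cell cannot be told apart.

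**Figure D1:**
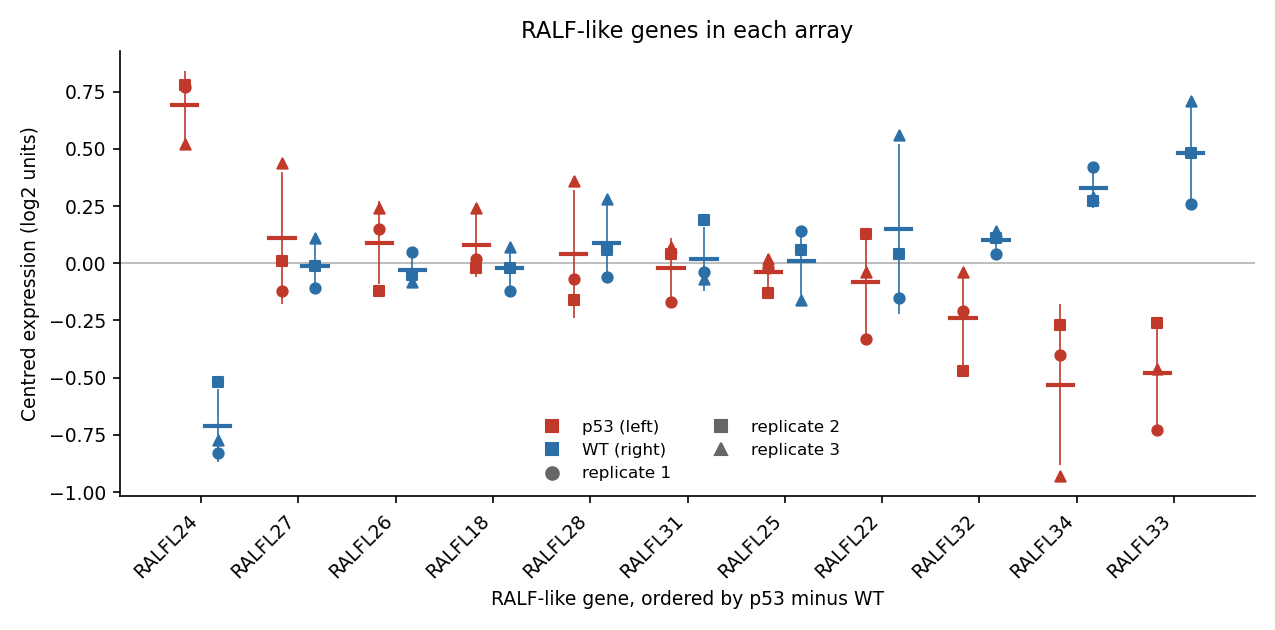
Centred expression (log2 units) of the 11 RALF-like genes in each array, with p53 at the left (red) and WT at the right (blue) of each pair. Symbols are replicates, horizontal bars are means and vertical lines are the SD (n = 3); the arrays of the genotypes do not overlap for RALFL24, RALFL32, RALFL34 and RALFL33.

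RALFL24 was the member that rose. Its centred expression was 0.77, 0.78 and 0.52 in p53 replicates 1 to 3, against -0.83, -0.52 and -0.77 in WT replicates 1 to 3. All p53 arrays lay above all WT arrays, with the lowest p53 array at 0.52 and the highest WT array at -0.52. The mean was 0.69 ± 0.15 in p53-transgenic and -0.71 ± 0.16 in WT seedlings (SD, n = 3 each). The log2 fold change was 1.39 (standard error 0.12, 95% interval 1.11 to 1.68, adjusted p = 0.000814 from limma). In linear terms the interval runs from 2.16-fold to 3.20-fold, and RALFL24 had rank 438 among the increases of all probe sets. RALFL24 passed under each of the 13 alternatives run, with adjusted p between 5.99e-07 and 0.0217.

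RALFL33 fell in p53-transgenic seedlings. RALFL33 is one of the RALF peptides known to dampen the response of Arabidopsis to a bacterial elicitor. Its centred expression was -0.73, -0.26 and -0.46 in p53 replicates 1 to 3, against 0.26, 0.48 and 0.71 in WT replicates 1 to 3. All p53 arrays were below all WT arrays, and the arrays spread widely within both genotypes, with means of -0.48 ± 0.24 in p53-transgenic and 0.48 ± 0.23 in WT seedlings (SD, n = 3 each). The log2 fold change was -0.97 (standard error 0.16, 95% interval -1.35 to -0.58, adjusted p = 0.0101 from limma). With the methods' t-test the adjusted p of RALFL33 was 0.0755, so the call was lost, while under the other alternatives it passed (0.00127 to 0.043 there).

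RALFL34, known as a regulator of lateral root initiation and as a ligand of the receptor kinase THESEUS1 (THE1) in Arabidopsis roots, also fell. Its centred expression was -0.40, -0.27 and -0.93 in p53 replicates 1 to 3, against 0.42, 0.27 and 0.29 in WT replicates 1 to 3. The WT arrays lay close together, and p53 replicate 3 was far below the other p53 arrays, so the means were -0.53 ± 0.35 in p53-transgenic and 0.33 ± 0.09 in WT seedlings (SD, n = 3 each). The log2 fold change was -0.86 (standard error 0.18, 95% interval -1.28 to -0.44, adjusted p = 0.0201 from limma). The call was lost with adjusted p of 0.0556 without p53 replicate 1, 0.0831 without WT replicate 1, 0.0575 without WT replicate 2, 0.0753 without WT replicate 3 and 0.106 with the methods' t-test (alternatives from 0.0065 to 0.106 in all). The fold change kept its direction in all of these, from -0.99 to -0.66.

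RALFL32 lay apart between the genotypes but did not pass the test. Its centred expression was -0.21, -0.47 and -0.04 in p53 replicates 1 to 3, against 0.04, 0.11 and 0.14 in WT replicates 1 to 3. The gap between the genotypes was small, from -0.04 in the highest p53 array to 0.04 in the lowest WT array. The log2 fold change was -0.34 (standard error 0.12, adjusted p = 0.118 from limma). Without p53 replicate 3 it was -0.44 and RALFL32 passed, with an adjusted p of 0.0369 that was the lowest of its alternatives (highest 0.292). The p53 and WT arrays thus did not overlap for 4 of the 11 genes (36.4%), which is close to the 34.3% of all probe sets without overlap. Of the 13513 probe sets that name 1 gene, 4346 were without overlap.

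**Figure D2:**
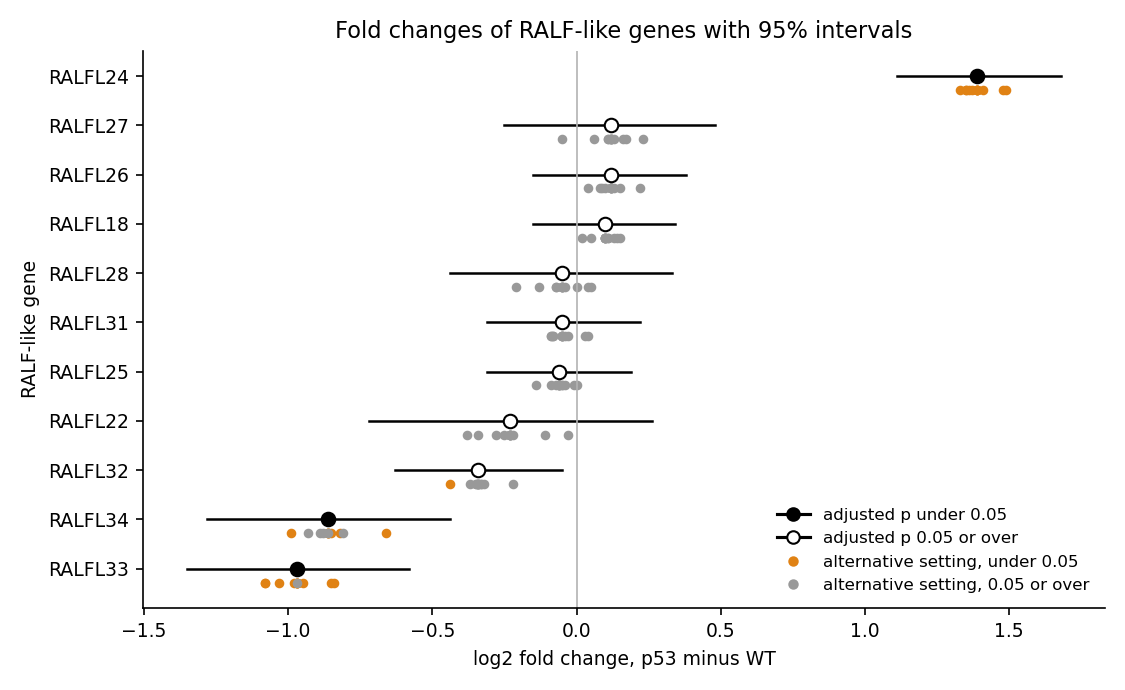
Log2 fold change (p53 minus WT) of each RALF-like gene, with its 95% interval as a line, filled where the adjusted p was under 0.05. Small points below each line are the 13 alternative settings, orange where the gene passed; all points of RALFL24 lie above 0, and those of RALFL33 and RALFL34 lie below 0.

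The arrays of the genotypes overlapped for the other 7 members. RALFL22, which is known in Arabidopsis to bind leucine-rich repeat extensins of the cell wall, had centred values of -0.33, 0.13 and -0.04 in p53 replicates 1 to 3, against -0.15, 0.04 and 0.56 in WT replicates 1 to 3. WT replicate 3 stood above the rest, and without it the log2 fold change was -0.03 in place of -0.23. RALFL22 had the largest pooled SD within genotypes of all members, 0.31, against a median of 0.14 over all probe sets and 0.16 for RALFL24. RALFL27 and RALFL28 were highest in p53 replicate 3, at 0.44 and 0.36, while the other p53 arrays lay between -0.16 and 0.01 and the WT arrays of both genes between -0.11 and 0.28. The values of RALFL18, RALFL25, RALFL26 and RALFL31 stayed between -0.17 and 0.24 in all 6 arrays.

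The intervals show how large a change these data could have missed. For 6 of the 8 members that did not pass, the whole 95% interval of the fold change lay within 1.5-fold in either direction. The exceptions were RALFL22, with an interval of 0.608-fold to 1.19-fold, and RALFL32, with 0.646-fold to 0.967-fold. Of all probe sets, whether they passed or not, 66% had the whole interval within 1.5-fold. The fold changes of RALFL18, RALFL26 and RALFL27 were 1.07, 1.08 and 1.08, and those of RALFL25, RALFL28 and RALFL31 were 0.960, 0.964 and 0.969. Because levels are unknown, a probe set near background and a gene that is expressed evenly would look alike here. The study selected genes by a t test and a fold change. With the unadjusted p of limma under 0.05 and more than 2-fold, RALFL24 passed as higher and no member as lower, where 3.14% and 2.73% of all probe sets did. At an unadjusted p under 0.05 from limma alone, 1 member was higher and 3 were lower, where 12.8% and 16.4% of all probe sets were.

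Members that moved in opposite directions were compared directly. For every pair of genes the centred value of one was subtracted from that of the other within each array, which gives the difference of their log2 fold changes. RALFL24 minus RALFL33 lay between 0.98 and 1.5 in the p53 arrays and between -1.49 and -1 in the WT arrays, a difference of 2.36 (standard error 0.22, 95% interval 1.74 to 2.98). RALFL24 minus RALFL34 lay between 1.05 and 1.45 in the p53 arrays and between -1.25 and -0.79 in the WT arrays, a difference of 2.25 (standard error 0.18, 95% interval 1.75 to 2.76). In all 10 pairs with RALFL24 the interval lay above 0, with differences from 1.28 over RALFL26 and RALFL27 to 2.36 over RALFL33. Each pair was ordered with the larger fold change first, which fixed the sign of its difference. The 10 pairs share the values of RALFL24, so they largely restate its rise and are not separate results. The intervals are not adjusted for the 55 pairs. A difference between the members that fell was not resolved, since RALFL34 minus RALFL33 was 0.11 with a 95% interval of -0.71 to 0.92. In a two-sided exact permutation test over the arrays, 27 of the 55 pairs, those of RALFL24 with RALFL33 and RALFL34 included, reached p = 0.1. That is the smallest p that 3 against 3 arrays allow, and it was 0.204 after Benjamini-Hochberg adjustment over the 55 pairs, so this test cannot pass the threshold.

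**Figure D3:**
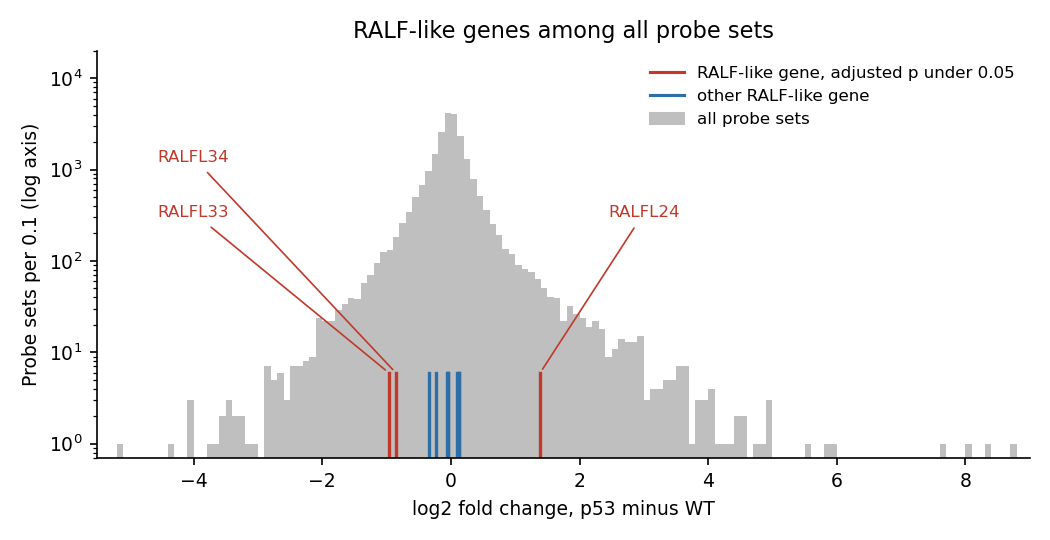
Log2 fold changes (p53 minus WT) of all 22746 probe sets as grey bars on a log axis, with the 11 RALF-like genes as vertical ticks. The 3 members that passed (red) lie at 1.39, -0.97 and -0.86, and the other 8 (blue) lie between -0.34 and 0.12.

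Single arrays weighed differently on the members. Among the p53 arrays, replicate 3 was the highest for 7 of the 11 genes, replicate 2 for 4 and replicate 1 for none, while for RALFL24 and RALFL34 replicate 3 was the lowest. Among the WT arrays, replicate 1 was the lowest for 7 of the 11 genes. Such counts were not made over all probe sets, so they cannot be read as a trait of the RALF-like genes. Across all probe sets, the deviations of p53 replicates 2 and 3 from their group mean had a correlation of -0.85. The study's quality summary marks every array of both genotypes as outside bounds on its threshold test. Control probe sets near the 3' and the 5' end of the same seedling transcript showed a shift with genotype in part. On 1 set of controls the centred 3' minus 5' difference for actin lay between -0.06 and -0.04 in p53 arrays and between 0.06 and 0.21 in WT arrays, and that for GAPDH between -0.24 and -0.08 in p53 arrays and between -0.06 and 0.14 in WT arrays. On a second set of controls for these transcripts the ranges overlapped, with actin between -0.08 and 0.03 in p53 and between -0.16 and 0.13 in WT arrays, while for ubiquitin they lay apart on the second set and overlapped on the first. The part of this shift in the fold changes of the RALF-like genes was not tested.

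Position on the chromosomes was a further property that the choice of members did not use. RALFL25 and RALFL26 are adjacent protein-coding genes on chromosome 3 of the reference, and their log2 fold changes were -0.06 and 0.12. The 11 members have 20 other protein-coding neighbours, of which 6 are the only gene of a probe set, looked up after the results of the members were known. Of these, 3 were lower and none was higher at an adjusted p under 0.05 from limma, while 3 were lower and 1 was higher at an unadjusted p under 0.05. Of all probe sets 8.84% were lower and 6.55% higher at the adjusted threshold, and 16.4% were lower and 12.8% higher at the unadjusted one. Of the 6 neighbours AT3G05500, next to RALFL22, had the largest difference, with 1.29, 0.07 and 1.80 in p53 replicates 1 to 3 against -0.07, -0.33 and -0.07 in WT replicates 1 to 3. Its arrays did not overlap between the genotypes, and it did not pass (log2 fold change 1.21, adjusted p = 0.0955 from limma). AT4G14000 and AT4G14020, on either side of RALFL32, differed between p53 and WT by -0.33 (adjusted p = 0.0495) and -0.97 (adjusted p = 0.0233) on the log2 scale. AT4G15790, next to RALFL33, fell by 0.47 on the log2 scale (adjusted p = 0.0387), with -0.25, -0.10 and -0.41 in p53 replicates 1 to 3 against 0.10, 0.17 and 0.36 in WT replicates 1 to 3. No neighbour of RALFL24 or RALFL34 was named alone by a probe set.

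On the receptor side, 12 of 17 listed receptor kinases of the FER family could be measured, meaning that a probe set names the gene alone. Of these, 2 were higher, 1 was lower and 9 did not pass. The share of all probe sets that passed in either direction was 15.4%. FER, the receptor of several RALF peptides, had centred values of 0.25, 0.32 and 0.10 in p53 replicates 1 to 3, against -0.10, -0.16 and -0.12 in WT replicates 1 to 3. All p53 arrays were above all WT arrays, and the log2 fold change was 0.35 (standard error 0.09, adjusted p = 0.0381 from limma). The call of FER was lost in 9 of the 13 alternatives, among them every fit without a single array other than p53 replicate 3, with adjusted p of 0.0728 to 0.133 there, and the fit with replicate numbers as blocks (adjusted p = 0.0596, where all alternatives ranged between 0.0193 and 0.133). AT2G39360 and AT5G59700 were matched to the list by locus and are called by it, since the annotation used here gives them no symbol. AT2G39360 was higher, with 0.63, 0.42 and 0.73 in p53 replicates 1 to 3 against -0.60, -0.66 and -0.42 in WT replicates 1 to 3 and a log2 fold change of 1.15 (adjusted p = 0.00138). AT5G59700 was lower, with -0.28, -0.23 and -0.32 in p53 replicates 1 to 3 against 0.48, 0.23 and 0.40 in WT replicates 1 to 3 and a log2 fold change of -0.65 (adjusted p = 0.00573). Both passed under all 13 alternatives.

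THE1, the receptor of the RALFL34 peptide, had a log2 fold change of 0.03 with a 95% interval of -0.65 to 0.70 from limma. The estimate for RALFL34, -0.86, lay outside this interval, but the interval of RALFL34, -1.28 to -0.44, overlapped it. With the methods' t-test the standard error of THE1 was 0.36 in place of 0.29. A difference between THE1 and RALFL34 was not tested. The centred values of THE1 were -0.18, 0.56 and -0.07 in p53 replicates 1 to 3, against -0.40, 0.57 and 0.07 in WT replicates 1 to 3. In both genotypes replicate 1 was thus the lowest and replicate 2 the highest. With replicate numbers as blocks the log2 fold change of THE1 stayed at 0.03, and its standard error was 0.10. The sign of THE1 turned with quantile normalization (-0.04), without p53 replicate 2 (-0.20) and without WT replicate 1 (-0.21). For ANX1 and ANX2, receptors of RALF peptides in pollen tubes, the log2 fold changes were 0.16 (adjusted p = 0.287) and 0.04 (adjusted p = 0.861).

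**Figure D4:**
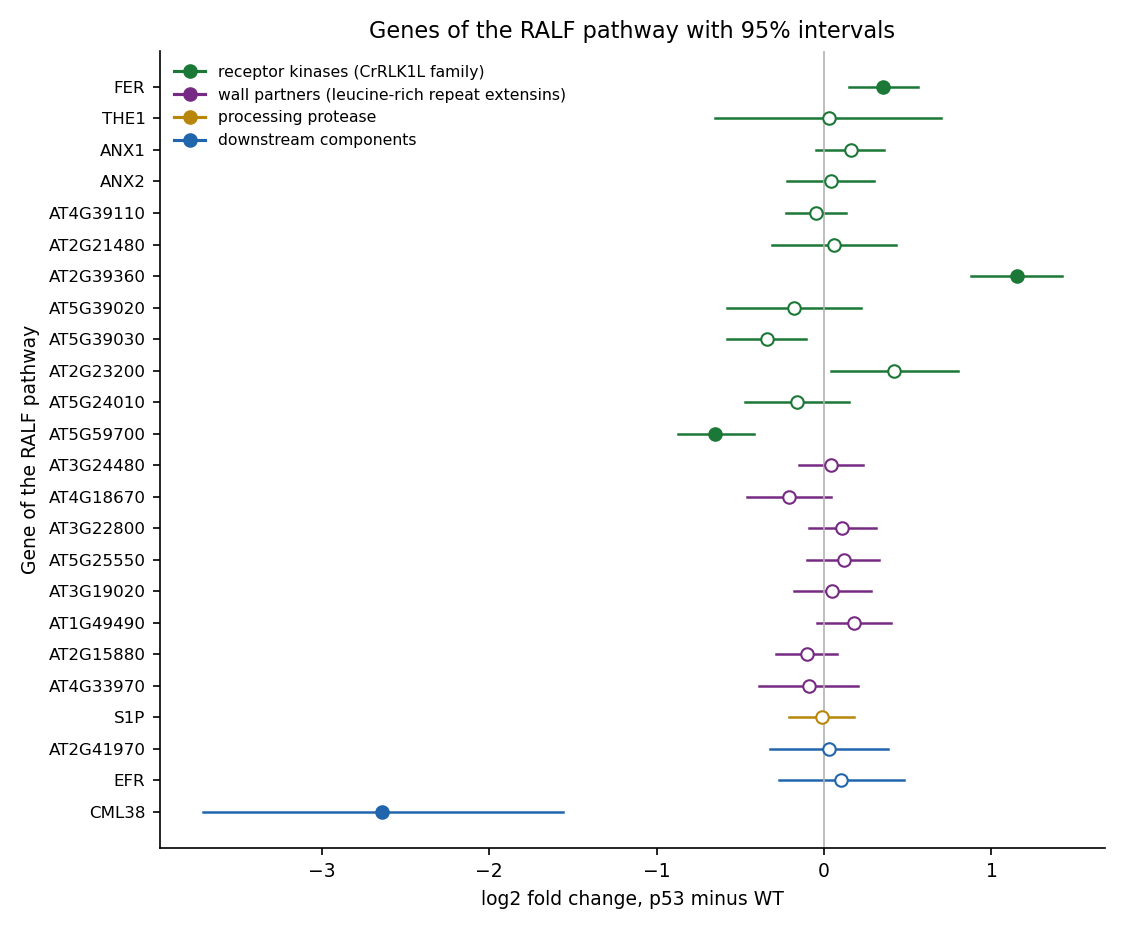
Log2 fold change (p53 minus WT) with 95% interval for the 24 measured genes of the RALF pathway, coloured by role and filled where the adjusted p was under 0.05. FER and AT2G39360 lie above 0, AT5G59700 and CML38 lie below 0, and the wall extensins lie between -0.21 and 0.18.

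The other roles of the pathway held 1 further change. Of 11 listed leucine-rich repeat extensins 8 could be measured, and none passed in either direction by limma, also at an unadjusted p under 0.05, with log2 fold changes between -0.21 and 0.18. At that unadjusted threshold 12.8% of all probe sets were higher and 16.4% lower. S1P, the protease that cuts some RALF precursors, had a log2 fold change of -0.01 with a 95% interval of -0.21 to 0.18. The immune receptor EFR, whose complex is modulated by FER and RALF peptides, had 0.10 (adjusted p = 0.738). CML38, a calmodulin-like calcium sensor that takes part in the root response to a RALF peptide in Arabidopsis and is also induced by wounding, fell. Its centred expression was -1.59, -1.55 and -0.77 in p53 replicates 1 to 3, against 0.85, 0.77 and 2.37 in WT replicates 1 to 3. The replicates 3 stood above the others in both genotypes, and no p53 array reached a WT array. The log2 fold change of CML38 was -2.64 (standard error 0.45, adjusted p = 0.0107 from limma). The call was lost without p53 replicate 1 (adjusted p = 0.0514) and with the methods' t-test (0.0903, the highest of its alternatives, of which the lowest was 0.00196). None of the 4 co-receptors of the LORELEI family and none of 5 response genes on the list was named alone by a probe set. CML38 was 1 of 3 measured genes among 20 listed downstream components. Over all roles 24 of 58 listed genes were measured, of which 2 were higher, 2 were lower and 20 did not pass. Their median log2 fold change was 0.03. Of all probe sets 15.4% passed in either direction.

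Among other signalling peptides, 7 genes could be measured, all of the CLE family, which acts on meristems and vascular tissue. None was higher by limma, at an adjusted or an unadjusted p under 0.05, 3 were lower and 4 did not pass, with a median log2 fold change of -0.29. Over all probe sets 6.55% were higher and 8.84% lower at the adjusted threshold. At an unadjusted p under 0.05 from limma 4 of the 7 were lower, where 12.8% of all probe sets were higher and 16.4% lower. CLE44 and CLE41, which encode the peptide that keeps vascular stem cells from becoming xylem, had log2 fold changes of -1.15 (adjusted p = 0.000684) and -0.58 (adjusted p = 0.00422), and CLE26 had -0.65 (adjusted p = 0.00789). The decreases of RALFL33 and RALFL34 lay between those of CLE44 and CLE26, while RALFL24 had the opposite sign. A difference between the families was not tested.

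For each RALF-like gene that passed, the named genes with the most similar values over the 6 arrays were found by the root mean square difference of the centred values. For RALFL24 these were AT3G12620, AT4G35410 and AT3G60060, at differences of 0.07, 0.09 and 0.09 and with r of 0.996, 0.995 and 0.998. For RALFL33 they were AT3G56880, AT1G67820 and AT4G22160, at 0.07, 0.08 and 0.11, with r of 0.994, 0.997 and 0.981. For RALFL34 they were TUB6, a beta-tubulin, AT4G13100 and AT2G30350, at 0.05, 0.05 and 0.06, with r of 0.998, 0.996 and 0.996. Each r is over 6 arrays that fall into 2 genotypes, so it mainly reflects the shared step between genotypes and is given as a description. TUB6, AT4G13100 and AT2G30350 had their lowest values, -0.93, -1.01 and -0.91, in p53 replicate 3, the array in which RALFL34 was lowest at -0.93. These genes were chosen for closeness over the same 6 arrays, so this likeness follows from the choice.

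Tissue markers were sparse among the named probe sets. Of 5 root hair markers 1 was measured, the expansin EXPA7, whose adjusted p was 0.947 at a log2 fold change of -0.02, with values of -0.02 to 0.04 in p53 and -0.14 to 0.22 in WT arrays. Of 5 pollen markers 3 were measured, none passed by limma, 1 was higher at an unadjusted p under 0.05, and their summed centred value lay between 0.01 and 0.77 in p53 and between -0.22 and 0.04 in WT arrays. The log2 fold changes differed, with 0.40 for AT5G45880, 0.16 for ANX1 and -0.05 for AT4G39110. Levels are unknown, so it could not be seen whether these pollen markers were expressed in the seedlings. Their sum therefore gives no share of a tissue. ANX1 and AT4G39110 are also on the list of receptor kinases. No listed leaf or seed marker was named alone by a probe set. The part of tissue shares in the fold changes of RALFL24, RALFL33 and RALFL34 was not tested.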

How the data were processed

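Total RNA of 10-day-old seedlings was labelled with the MessageAmp Premier kit and hybridized to ATH1 arrays. RNA was isolated with TRIzol per the labels and with a column kit per the methods. Per the labels the authors used PLIER, and the deposited log2 values (base assumed) are centred on the median of each probe set. Background correction and normalization are stated in neither.

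Of 22810 probe sets, 64 controls were left out. Of the rest, 13513 name 1 gene, 503 name several genes and 8730 have no gene listed. A listed gene that was not measured here may therefore still have a probe set on the array. Of the 11 RALF-like genes, 10 matched TAIR10.1 by gene ID and RALFL22 by symbol. The p53 minus WT difference was fitted without covariates by lmFit and eBayes of limma 3.58.1 (R 4.3.3) and tested two-sided, with Benjamini-Hochberg adjustment over 22746 probe sets, and the steps were tested on simulated data. The intervals of differences between pairs use the spread of those differences over the arrays (4 degrees of freedom). P-values measure the spread between these arrays. The members and gene lists were chosen with earlier results of these data known. All members, all measured pathway genes (some of them in the plot of the pathway alone), the listed peptides that passed and the genes closest in pattern are named. Pathway genes were matched by locus.

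Replicate numbers are shared by the genotypes. After subtraction of the group means, same-numbered p53 and WT arrays had correlations of 0.12, 0.27 and 0.34 across probe sets, each over 0.1. Those of differently numbered p53 and WT arrays lay between -0.28 and 0.03. This evidence comes from the values and not from the labels. The comparison reported has no block, and blocking on replicate numbers was an alternative. With the block the standard errors of RALFL24, RALFL33 and RALFL34 were 0.10, 0.11 and 0.15, in place of 0.12, 0.16 and 0.18. Alternatives were quantile normalization, centring of each array, the t-test with Benjamini-Hochberg adjustment, eBayes with trend and robust, and the replicate block. Others were leaving out the 25% of probe sets with the smallest SD, testing only probe sets that name 1 gene, and leaving out each array.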

Additional observations from a re-analysis of the deposited data

How the results depend on the processing

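Of 143 repeated fits of the 11 RALF-like genes, 129 kept the direction and the side of the threshold. With the t-test RALFL33 (-0.97) and RALFL34 (-0.86) did not pass after adjustment, so no member was lower (count 0). Before adjustment 2 members were lower at p under 0.05 from that test. After adjustment fewer probe sets passed in all (668 higher, 743 lower). Without single arrays the log2 fold changes ran from 0.02 to 0.15 (RALFL18), -0.38 to -0.03 (RALFL22), 1.33 to 1.49 (RALFL24), -0.14 to 0.00 (RALFL25), 0.04 to 0.22 (RALFL26), -0.05 to 0.23 (RALFL27), -0.21 to 0.05 (RALFL28), -0.09 to 0.04 (RALFL31), -0.44 to -0.22 (RALFL32), -1.08 to -0.84 (RALFL33) and -0.99 to -0.66 (RALFL34). The signs of RALFL25, RALFL27, RALFL28 and RALFL31, none of which passed, turned in these ranges. The count of lower members ran from 1 to 3, and RALFL34 minus RALFL33 from -0.09 to 0.32.

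On the pathway list 1 gene in place of 2 was higher with the t-test, with trend and robust, with the smallest SDs left out and with the replicate block. With the t-test 1 in place of 2 was lower. The replicate block changed no call of a RALF-like gene. Without single arrays the pathway counts were 1 to 2 higher and 1 to 3 lower, and those of all probe sets 722 to 1961 higher and 899 to 2385 lower, the lowest without WT replicate 3. With only probe sets that name 1 gene tested, 764 were higher and 1169 lower, since fewer entered. THE1 turned to -0.04 with quantile normalization and ran from -0.21 to 0.27 without single arrays. The cause of these changes was not tested. Filters on dim probe sets and other background corrections were not run, since centred values hold no levels.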
